A study of Mus musculus with 9 samples.

Results

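A set of 10 genes known as transcription factors or markers of mesenchymal cells were followed in mouse embryonic stem cells with and without Xpc: the factors Twist1, Twist2, Snai1, Snai2, Zeb1, Zeb2 and Prrx1, and the marker genes Vim, Fn1 and Thy1. Members were chosen by name, with earlier results of these data known. All 10 were on the array, with 13 of its 55681 probes. The whole array held 35019 gene names, of which 19909 were tested, each because a probe of it was well above background throughout the 3 arrays of some group. Among the members 8 met that condition, and Twist1 and Prrx1 did not.

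Embryonic stem cells are cultured cells of the early embryo that renew themselves. Total RNA was measured on 9 Agilent 1-colour arrays, 3 in each of 3 groups of a study built on 1 inducible Xpc knockout line, in which Cre recombinase cuts the floxed gene out between its loxP sites. Xpc is a DNA damage sensor that is also known as a partner of Oct3/4. Floxed cells (Xpc_f/f, marked -Tx in the titles) had no deletion. Induced cells (Xpc_f/f, marked +Tx) were taken 4 days after deletion was induced. Null cells (Xpc_KO) were subcloned and are labelled Xpc-null. The induction, Cre and the loss of Xpc came together in every induced array and cannot be told apart, nor can the loss of Xpc and the subcloning in null cells. The labels speak of triplicates without saying whether these were separate cultures, and if they were not, each p-value measures technical spread only. They also do not say how many subclones the null cells came from.

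An epithelial-mesenchymal transition is the change by which cells joined in a sheet lose their junctions and become migratory. Proteins of the Snai, Zeb and Twist families bind short DNA motifs called E-boxes and repress junction genes such as Cdh1, which encodes E-cadherin. Vimentin (Vim) and fibronectin (Fn1) are an intermediate filament and a matrix protein of mesenchymal cells, and Thy1 is a surface protein of fibroblasts, neurons and T cells. In the early mouse embryo the transition is best known at gastrulation, when the mesoderm forms.

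Values below are log2 of the processed spot signal minus log2 of the array's 75th percentile, so 0 is the level of that percentile and 1 unit is a doubling. Xpc was lower in every induced and null array than in every floxed array, at 0.59, 0.55 and 0.16 in floxed, -1.11, -0.68 and -1.05 in induced, and -0.85, -1.53 and -1.37 in null arrays. Over all genes it passed the limma test between null and floxed cells (-1.68, adjusted p = 0.00583) and not between induced and floxed cells (-1.38, adjusted p = 0.224). The probe stayed well above background on all 9 arrays, null ones included, and the sources used here do not say whether the deletion removes its target. Null and induced cells had a difference of -0.30 in it (adjusted p = 0.386). Between 47.4% and 57.9% of spots lay well above background on an array. Floxed array 3 stood apart from floxed arrays 1 and 2: its differences from their mean had an SD of 0.492 over all genes. It sat on slide 2 with null array 3, where the local background was 29 and 29.5, against 39 to 46.5 elsewhere. Slide 1 held floxed arrays 1 and 2, and slide 3 all induced arrays with null arrays 1 and 2, so no slide held both floxed and induced cells. Of 10 markers of embryonic stem cells, among them Pou5f1 and Nanog, all 10 lay well above background on every array.

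RefSeq promoter sequences (build GRCm38.p6) were given for 6 of the 10 members, all but Snai2, Zeb1, Fn1 and Thy1. The 3 below are shown because Twist2 and Zeb2 were the members that passed the test, and Snai1 is the factor whose window held an E-box. Each is the 250 bases before the annotated start, 5′ to 3′ on the gene's strand, with E-boxes (CANNTG, which reads the same pattern on both strands) in capitals. Twist2 is on chromosome 1 (91801211 to 91801460, plus strand), Zeb2 on chromosome 2 (45117443 to 45117692, minus strand, the most upstream of 4 starts), and Snai1 on chromosome 2 (167537945 to 167538194, plus strand).
Twist2: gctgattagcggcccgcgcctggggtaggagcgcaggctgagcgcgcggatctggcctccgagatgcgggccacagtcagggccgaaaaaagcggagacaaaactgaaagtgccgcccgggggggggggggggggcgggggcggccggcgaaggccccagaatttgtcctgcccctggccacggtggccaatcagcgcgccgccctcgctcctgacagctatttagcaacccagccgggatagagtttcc
Zeb2: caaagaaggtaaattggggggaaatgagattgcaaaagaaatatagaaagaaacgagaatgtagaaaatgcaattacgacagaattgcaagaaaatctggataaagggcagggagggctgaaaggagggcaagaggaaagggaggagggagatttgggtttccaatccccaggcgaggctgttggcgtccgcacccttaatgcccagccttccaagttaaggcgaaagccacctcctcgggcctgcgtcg
Snai1: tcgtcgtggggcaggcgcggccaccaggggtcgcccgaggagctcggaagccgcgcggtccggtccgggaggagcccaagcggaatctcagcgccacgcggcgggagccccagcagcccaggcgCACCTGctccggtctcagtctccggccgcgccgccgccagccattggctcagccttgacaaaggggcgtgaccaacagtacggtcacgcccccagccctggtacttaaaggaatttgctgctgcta

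The only E-box in these windows was a CACCTG in that of Snai1, its first base 126 bases before the start. No other member's window held one, at any of the starts given for Twist1, Prrx1, Vim and Zeb2. Of all 32851 promoter windows of this length, 66.2% held CANNTG and 17.2% held CAGGTG or CACCTG, which are 1 motif read on the 2 strands and part of CANNTG. These letters are a description of the windows and not evidence of binding.

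Twist2, a basic helix-loop-helix factor of the dermis and other mesenchyme, was lower in null cells than in either other group. Its probe, at 93744519 to 93744577 on chromosome 1 of mm9, read -2.96, -2.93 and -3.05 in the floxed group (arrays 1, 2 and 3), -3.41, -3.38 and -3.18 in the induced group, and -5.16, -4.88 and -5.71 in the null group. All 6 floxed and induced arrays lay well above background and all 3 null arrays did not, so the null level is only an upper limit. The filter thus let the probe in by the groups where it was high, so the calls below are no independent support for a fall. The call against floxed cells also held with no filter on dim probes. The test used the null readings as they stood. It gave differences of -2.27 from floxed (limma adjusted p = 0.000896) and -1.93 from induced cells (limma adjusted p = 0.00351). As a bound, null cells were at least 1.49-fold lower than floxed cells and at least 1.18-fold lower than induced cells. These bounds, which were not tested, set each null array at no less than the lowest signal that any probe well above background reached on it. The mean was -2.98 ± 0.064 (SD, n = 3) for floxed cells, -3.32 ± 0.12 (SD, n = 3) for induced cells, and -5.25 ± 0.43 (SD, n = 3) for null cells. Induced arrays were all below floxed arrays too, with a difference of -0.34 that did not pass (limma adjusted p = 0.927, 95% interval -0.77 to 0.087). The call against induced cells was lost with normexp background correction (-0.42, limma adjusted p = 0.0714) and with the series matrix values (-0.49, limma adjusted p = 0.0791). Against floxed cells the difference ran from -2.66 to -0.63 over the alternatives. The signal itself was low, between 34.0 and 56.1 intensity units in floxed and induced arrays.

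**Figure D1:**
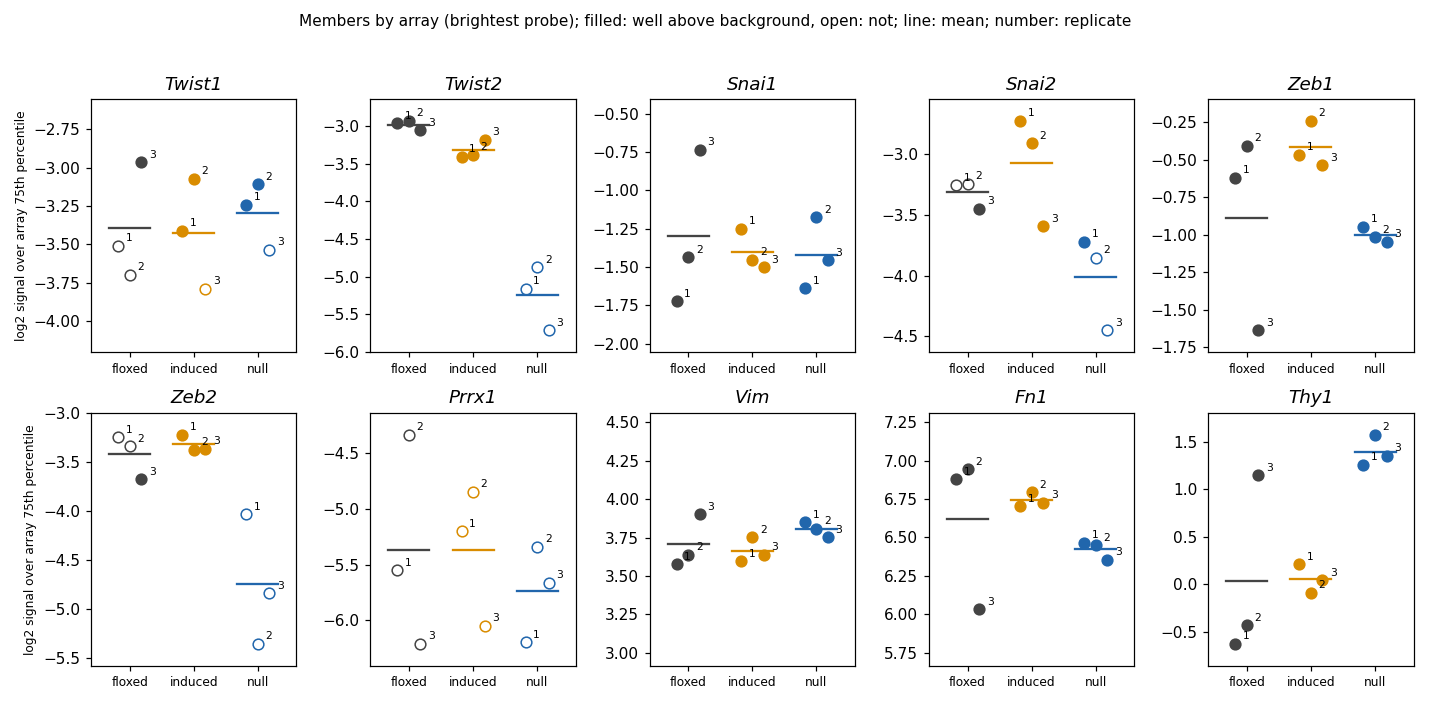
Log2 signal over the array's 75th percentile (y axis, a separate range in each panel) for the brightest probe of each of the 10 members in the 3 groups (x axis), 1 point an array, labelled with its replicate number. Filled points lay well above background, open ones did not, and lines are group means. Twist2 is open in all 3 null arrays, and floxed array 3 lies apart from floxed arrays 1 and 2 in the panels of Zeb1, Fn1 and Thy1.

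Twist1, the closest relative of Twist2 and a factor of head mesenchyme, stayed near the limit of detection. Its probe, at 34644411 to 34644470 on chromosome 12 of mm9, read -3.51, -3.70 and -2.97 in floxed, -3.41, -3.07 and -3.79 in induced, and -3.24, -3.11 and -3.53 in null arrays, and 5 of 9 arrays lay well above background. The groups overlapped fully. In a fit with no filter on dim probes its differences lay between -0.034 and 0.13, the one between null and floxed cells at 0.095 (limma adjusted p = 0.952).

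Zeb2, a zinc finger repressor of the E-cadherin gene, passed between null and induced cells, through a probe that the filter let in for its induced arrays alone. Of its 3 probes, the brightest (44842774 to 44842833 on chromosome 2 of mm9, minus strand) read -3.25, -3.34 and -3.67 in floxed, -3.22, -3.37 and -3.36 in induced, and -4.03, -5.36 and -4.84 in null arrays. Null arrays were all below the other 6 and none was well above background, against 1 of 3 floxed and 3 of 3 induced arrays. On the readings as they stood, null cells differed by -1.43 from induced cells (limma adjusted p = 0.0438). The bound, which was not tested, was at least 1.18-fold lower. Against floxed cells, mostly below background too, the difference did not pass (limma adjusted p = 0.0581). Since the filter chose the probe by the group where it was high, the call is no support for a difference, and with no filter on dim probes its adjusted p was 0.151. Leaving out 1 array at a time, the call held without floxed array 3 or null array 1 and was lost without any of the other 7, at adjusted p between 0.0595 and 0.163. The other 2 probes of Zeb2 lay well above background on no array.

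Zeb1, the second member of that family, on chromosome 18, was well above background on all 9 arrays. It read -0.62, -0.41 and -1.64 in floxed, -0.47, -0.24 and -0.54 in induced, and -0.95, -1.02 and -1.05 in null arrays. Floxed array 3 was the lowest of all 9 and floxed arrays 1 and 2 lay close to the induced ones. Null arrays were below all induced arrays, with a difference of -0.59 that did not pass with all 9 arrays (limma adjusted p = 0.227). Against floxed cells the null difference was -0.12 (limma adjusted p = 0.827, 95% interval -0.73 to 0.50). Within slide 3 alone, 3 induced against 2 null arrays, the difference of Zeb1 was -0.57 (limma adjusted p = 0.0324, where 12.4% of all genes passed).

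Snai1, the zinc finger factor of mesoderm formation, did not separate the groups. Its probe, at 167368073 to 167368132 on chromosome 2 of mm9, read -1.72, -1.44 and -0.74 in floxed, -1.25, -1.45 and -1.50 in induced, and -1.64, -1.18 and -1.46 in null arrays, all well above background. The groups overlapped, with floxed array 3 the highest of the 9. Differences were -0.10 (95% interval -0.64 to 0.43) for induced against floxed, -0.12 (-0.66 to 0.41) for null against floxed and -0.021 (-0.55 to 0.51) for null against induced cells. A change of 1 unit lay outside each interval, but the fit had no term for slide, so such a change is not excluded. Over the alternatives the difference ran from -0.71 to 0.18 for induced against floxed and from -0.72 to 0.16 for null against floxed cells.

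Snai2, a factor of neural crest, lay near the limit of detection, with its lowest readings in the null arrays. Its probe, at 14709361 to 14709420 on chromosome 16 of mm9, read -3.25, -3.24 and -3.45 in floxed, -2.72, -2.91 and -3.59 in induced, and -3.72, -3.85 and -4.45 in null arrays. It was well above background on 1 floxed, 3 induced and 1 null array, so that it too entered the test only through the induced group. Null arrays were below all others, and the differences of -0.69 from floxed (limma adjusted p = 0.153) and -0.93 from induced cells (limma adjusted p = 0.0866) did not pass.

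Prrx1, a homeobox factor of limb and craniofacial mesenchyme, was well above background on no array at either probe. The brighter probe read between -6.21 and -4.34 in floxed, -6.05 and -4.85 in induced, and -6.20 and -5.34 in null arrays. At this signal no change could be detected.

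Thy1 read highest in the null arrays, with floxed array 3 close to their level, and did not pass with all 9 arrays. Its probe, at 43856591 to 43856650 on chromosome 9 of mm9, read -0.63, -0.43 and 1.15 in floxed, 0.21, -0.09 and 0.04 in induced, and 1.26, 1.58 and 1.35 in null arrays, well above background on all 9. Every null array was above every other array, and floxed array 3 was 1.67 above the mean of floxed arrays 1 and 2. The difference did not pass against floxed (1.37, limma adjusted p = 0.103) or induced cells (1.34, limma adjusted p = 0.103). On slide 3 alone null arrays were 1.36 above the induced ones (limma adjusted p = 0.00537, with 12.4% of all genes passing), while on slide 2 null array 3 was only 0.21 above floxed array 3. Of 8 markers of neurons and T cells, other cells that carry Thy1, 5 were tested and 0 passed in any comparison with all 9 arrays. Of these 5, 1 was at an unadjusted p under 0.05 between null and floxed cells, as were 4540 of all 19909 genes. In the fit without floxed array 3, Tubb3, a tubulin of neurons named after its value was seen, was the 1 that rose.

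Vim and Fn1, the structural markers, were among the members well above background on every array, and neither passed in any comparison with all 9 arrays. The probe of Vim, at 13504232 to 13504291 on chromosome 2 of mm9, read 3.58, 3.64 and 3.90 in floxed, 3.60, 3.75 and 3.64 in induced, and 3.85, 3.81 and 3.75 in null arrays. Its differences were -0.044 (95% interval -0.29 to 0.20) for induced against floxed, 0.097 (-0.15 to 0.34) for null against floxed and 0.14 (-0.10 to 0.39) for null against induced cells. The probe of Fn1, at 71632116 to 71632175 on chromosome 1 of mm9 (minus strand), read 6.88, 6.94 and 6.03 in floxed, 6.70, 6.79 and 6.73 in induced, and 6.47, 6.45 and 6.36 in null arrays. Floxed array 3 was the lowest of the 9 arrays for Fn1, and floxed arrays 1 and 2 were the highest. Null arrays were below all induced arrays, with a difference of -0.32 (limma adjusted p = 0.391), and the difference from floxed cells was -0.19 (limma adjusted p = 0.613). Once floxed array 3 was left out, Fn1 was lower in null cells in both comparisons, at -0.49 against floxed (limma adjusted p = 0.00495) and -0.32 against induced cells (limma adjusted p = 0.0236).

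**Figure D2:**
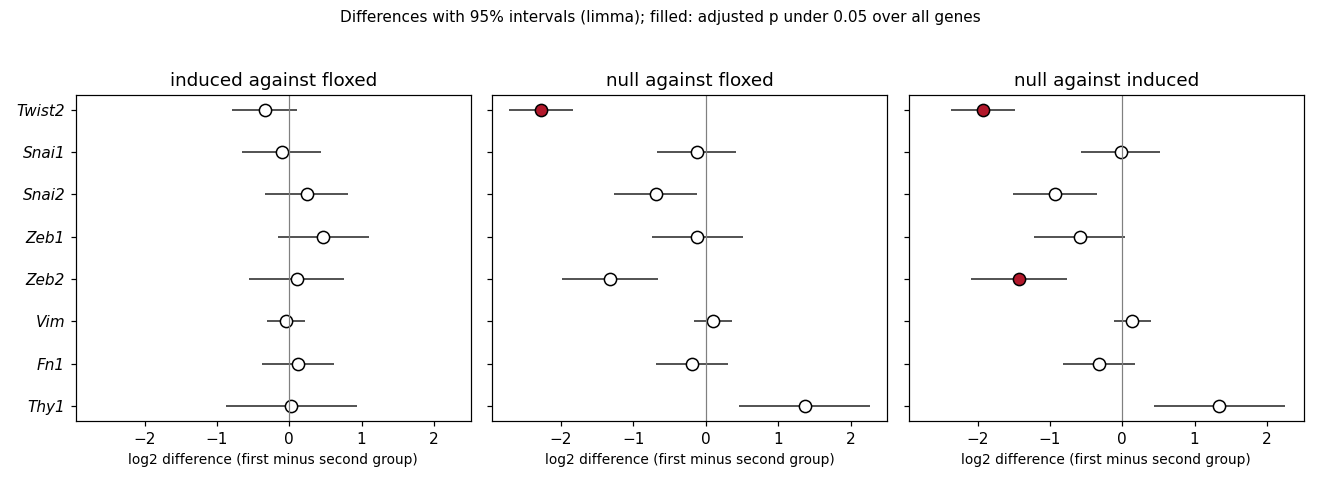
Log2 difference between groups (x axis) with its 95% interval from limma for the 8 members tested (y axis), in the 3 comparisons. Filled points passed over all 19909 genes. Twist2 passed in both comparisons of null cells and Zeb2 in that with induced cells, while for these 2 genes the drawn difference runs between a measured level and one below background.

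Across the 8 members tested, none passed between induced and floxed cells, where 0.00502% of all genes did (1 of 19909, with 1176 at an unadjusted p under 0.05, and 0 of the 8 members at that p). In null against floxed cells 1 member was lower and 0 were higher, where 1.84% of all genes passed (1.11% lower, 0.738% higher). Of those calls 40.1% were higher, and 26.5% with arrays centred on their median. In null against induced cells 2 were lower and 0 higher, where 2.2% passed (1.54% lower, 0.658% higher). These include Zeb2, tested only because of its induced arrays. Twist2, in both counts, was tested only because of its floxed and induced arrays, so nothing is read from either count. At an unadjusted p under 0.05 the members numbered 4 in each of these 2 comparisons (Twist2, Zeb2, Snai2 and Thy1). Of all 19909 genes 4540 were at such a p between null and floxed cells, and 4749 between null and induced cells. The comparisons with floxed cells share the floxed arrays, and those of null cells share the null arrays, so their calls are not independent. Groups did not overlap for 1 member (Twist2) between induced and floxed cells, for 4 between null and floxed cells (Twist2, Snai2, Zeb2 and Thy1), and for 7 between null and induced cells (all but Snai1). Over all genes these shares were 12.9%, 23.4% and 37.2%. Zeb2 and Snai2 had entered through the induced arrays, and Twist2 through the floxed and induced ones. The filter therefore favoured their part in the counts of null cells.

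Leaving out floxed array 3 changed the account of null cells most. Then 5 members passed between null and floxed cells, Thy1 higher by 1.92 (limma adjusted p = 0.000145), and Twist2 (limma adjusted p = 0.000458), Zeb2 (adjusted p = 0.0148), Fn1 (-0.49, adjusted p = 0.00495) and Zeb1 (-0.49, adjusted p = 0.0193) lower. In that fit 24.9% of all genes passed, so the count rose over the whole table. Between null and induced cells 6 members passed, with the same differences and a smaller estimate of the spread: Thy1 higher, and Twist2, Zeb2, Zeb1, Fn1 and Snai2 lower, against 18.1% of all genes. No member passed between induced and floxed cells, where 0.787% of all genes did. Thy1 then had a difference of 0.58 between them (limma adjusted p = 0.119).

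With slide as a block the comparison of null with floxed cells rests on null array 3 and floxed array 3 alone. With 1 array in each arm, the spread came from the other arrays and these 2 are assumed to vary like them. Twist2, below background on null array 3, passed in that fit (fitted difference -2.66, limma adjusted p = 0.0141, with 0.251% of all genes), while Zeb1 was at 0.59, Fn1 at 0.32 and Vim at -0.15, none of these 3 past the test. Zeb1 and Fn1 thus had opposite signs against floxed arrays 1 and 2 and against floxed array 3. In the same fit 4 members passed between null and induced cells, Twist2, Zeb2, Zeb1 and Thy1, with 16.3% of all genes. Between induced and floxed cells, which that fit compares only through the null arrays, 0 members passed and 0.874% of all genes did.

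**Figure D3:**
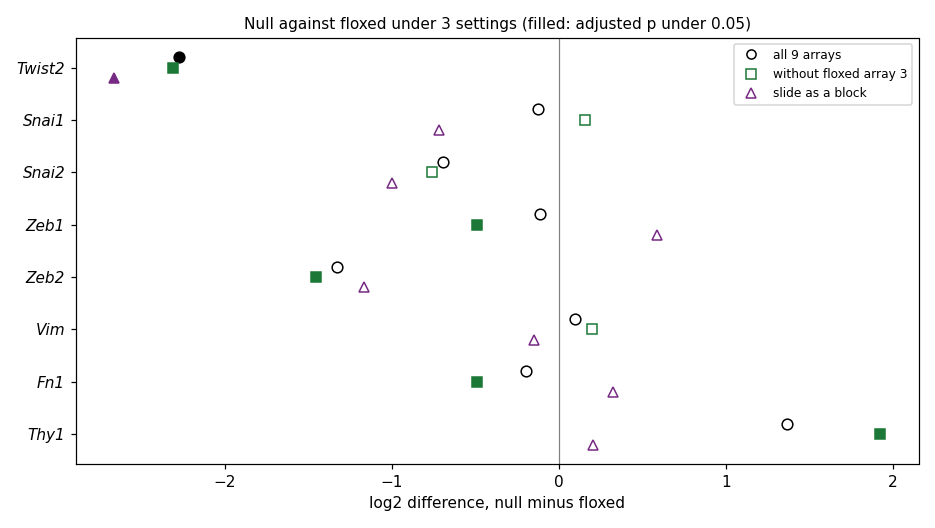
Log2 difference of null minus floxed cells (x axis) for the 8 members tested (y axis) with all 9 arrays, without floxed array 3, and with slide as a block. Filled symbols passed over all genes. Twist2 passed in all 3, Thy1, Zeb1, Zeb2 and Fn1 only without floxed array 3, and the signs of Zeb1, Fn1, Vim and Snai1 differ between settings.

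The genes around these factors were taken from 5 lists, chosen with earlier results of these data known. From the mesenchymal list 1 gene was left out after the counts were seen. The counts and medians of the lists are thus a description and no independent support. Over all genes 1.11% fell and 0.738% rose between null and floxed cells, and 1.54% and 0.658% between null and induced cells. Of 24 genes of mesenchymal structure and matrix 19 were tested, of which 8 fell in null against floxed cells, 0 rose and 11 did not pass, with a median of -0.58 against 0.012 over all genes. Acta2, a smooth muscle actin, fell by 3.55 (SE 0.28, limma adjusted p = 0.000762), Col1a1, a chain of type I collagen, by 2.39 (adjusted p = 0.00063), and Thbs1, a matrix protein of platelets and fibroblasts, by 2.18 (adjusted p = 0.00175). Against induced cells 7 fell and 0 rose, with a median of -0.35. The other falls against floxed cells, named after their values were seen, were the actin-binding Tagln, the collagens Col1a2 and Col3a1, the cadherin Cdh11 and the matrix protein Ccn1. Col3a1 was well above background on no null array and at least 1.88-fold lower, a bound that was not tested. The filter let it in by the groups where it was high, so its call is no independent support for a fall. Cdh2, which encodes N-cadherin, a standard sign of the transition, had a difference of 0.28 between null and floxed cells that did not pass (adjusted p = 0.372). Without floxed array 3, when 24.9% of all genes passed, 9 fell against floxed cells and Cdh2 was the 1 that rose (0.51, adjusted p = 0.00831). The count passing went down to 5 without floxed array 1 or 2, to 4 without null array 1 or 2, with no filter or with slide as a random block, and to 3 with slide as a block. The median lay between -0.74 and -0.32 over the 21 alternatives. Col1a1, Col1a2 and Col3a1 are also fibroblast markers, a list described further on.

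Among epithelial genes that the factors are known to repress, those that passed with all 9 arrays were lower in null cells, and most did not pass. Of 28 listed, 26 were tested, 5 fell, 0 rose and 21 did not pass between null and floxed cells, with a median of 0.066. Over all genes 1.11% fell there and 0.738% rose. The falls were those of the keratins Krt18 (-1.86, limma adjusted p = 0.00298), Krt8 (-1.64, adjusted p = 0.000762) and Krt19 (-1.56, adjusted p = 0.00063), and also of the desmosome gene Dsp (-1.13) and Patj of tight junctions (-0.84), the last 2 named after their values were seen. Krt8 and Krt18 are also trophectoderm markers. Cdh1 was at 0.14 (adjusted p = 0.462) and Epcam at 0.088 (adjusted p = 0.745). Against induced cells the same 5 genes fell and 0 rose, with a list median of 0.22 against 0.021 over all genes. At an unadjusted p under 0.05 were 17 of the 26, against 4749 of all 19909 genes. Without floxed array 3, 9 rose and 5 fell against induced cells, when 18.1% of all genes passed. Without floxed array 3, when 24.9% of all genes passed, 8 fell against floxed cells and 7 rose: Esrp1, Esrp2, Grhl2, Lsr, Mal2, Ovol1 and Pkp2, named after their values were seen. With slide as a block 2 passed, the lowest count over the 21 alternatives.

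**Figure D4:**
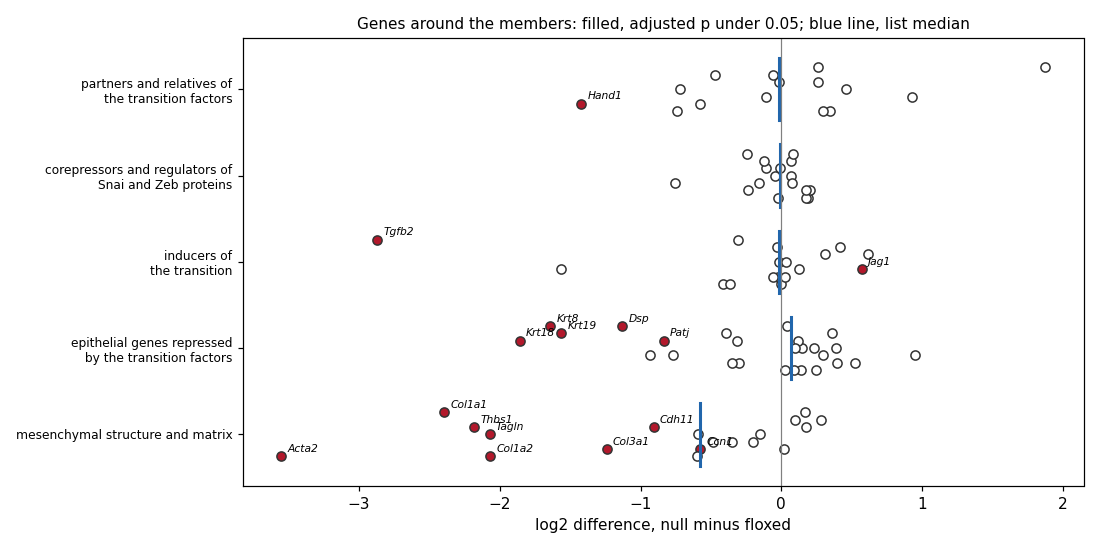
Log2 difference of null minus floxed cells (x axis) for each tested gene of the 5 lists (y axis), with named filled points past the test over all genes and a blue line at each list's median. The falls lie mostly among the genes of mesenchymal structure (8 of 19) and the epithelial genes (5 of 26), and the median is farthest from 0 in the former, at -0.58. Over all genes 1.11% fell and 0.738% rose. The lists were chosen with earlier results of these data known, so the counts and medians are a description only.

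Among partners and relatives of the factors few genes passed. Of 24 listed, 15 were tested, and 1 fell between null and floxed cells: Hand1, a basic helix-loop-helix factor of trophoblast and heart (-1.42, limma adjusted p = 0.016, well above background on 1 of 3 null arrays). Since Hand1 was tested only because of its floxed and induced arrays, its calls are no independent support for a fall. Hand1 and Id4, an inhibitor of such factors (-0.62, adjusted p = 0.0339), fell against induced cells. Tcf3, Tcf4 and Tcf12, the dimer partners of Twist proteins, did not pass, at 0.26, 0.30 and -0.47, nor did Snai3 (0.26) or Prrx2 (-0.11). Without floxed array 3, 4 rose (Id1, Id2, Meox1 and Msx1) and 2 fell (Hand1 and Scx) against floxed cells, the added ones named after their values were seen. In that fit 24.9% of all genes passed, against 1.84% with all 9 arrays. Of 18 corepressors and regulators of Snai and Zeb proteins 17 were tested and 0 passed in any of the 3 comparisons. At an unadjusted p under 0.05 were 1, 1 and 2 of them, against 1176, 4540 and 4749 of all 19909 genes. Among the 17 were the demethylase Kdm1a (0.21 between null and floxed cells), the deacetylase Hdac1 (0.084) and the corepressor Ctbp1 (-0.16). Without floxed array 3, 1 of them fell against floxed cells (Lats2, a kinase of the Hippo pathway, -0.92, adjusted p = 0.00702, named after its value was seen).

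Among 18 inducers of the transition 17 were tested. Tgfb2, a growth factor of the TGF-beta family, fell in null cells against floxed (-2.87, limma adjusted p = 0.00063) and against induced cells (-2.37, adjusted p = 0.00207), and was well above background on 1 of 3 null arrays. Since Tgfb2 was tested only because of its floxed and induced arrays, these calls are no independent support for a fall. Jag1, a Notch ligand, rose against floxed cells (0.57, adjusted p = 0.0445). The other 15 did not pass against floxed cells, and without floxed array 3, 2 inducers rose (Jag1 and Tgfb1) and 4 fell (Hmga2, Pdgfa, Tgfb2 and Tgfbr2), again partly named after their values were seen. Of all genes 24.9% passed in that fit and 1.84% with all 9 arrays. Between induced and floxed cells 0 genes of any of the 5 lists passed with all 9 arrays. At an unadjusted p under 0.05 were 1, 1, 1, 9 and 2, in the order partners, corepressors, inducers, epithelial and mesenchymal genes. Of all 19909 genes 1176 were at such a p in this comparison. There, without floxed array 3, Acta2 fell and Id2 and Meox1 rose, with 0.787% of all genes passing.

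The 9 marker lists were also chosen with earlier results of these data known, so their counts are a description only. Of 15 fibroblast markers 4 were tested, and 3 of those fell between null and floxed cells, all collagens (Col1a1, Col1a2 and Col3a1). Over all genes 1.11% fell in this comparison and 0.738% rose. The other one, Mfap5, a protein of microfibrils named after its value was seen, was at 0.64 (limma adjusted p = 0.0833) and rose without floxed array 3 (0.77, adjusted p = 0.0108). The summed signal of the list, each probe over its array's 75th percentile, was 2.22 to 3.43 in floxed, 2.30 to 2.61 in induced and 1.41 to 1.51 in null arrays. Well above background on no array were 7 of the 15, among them the defining receptors Pdgfra and Pdgfrb, Postn and Lum. Of 9 trophectoderm markers tested 6 fell and 0 rose, among them the regulator Cdx2, well above background on no null array, with summed signals of 79.8 to 118 in floxed, 69.3 to 94.9 in induced and 37.7 to 41.0 in null arrays. Of the falls, Gata3 and Hand1 were well above background on 1 of 3 null arrays each. The filter let Cdx2, Gata3, Hand1 and the fibroblast marker Col3a1 in by groups where they were high. Their calls are thus no independent support for a fall. Over the 21 alternatives the count passing ran from 1 to 4 for fibroblast and from 1 to 8 for trophectoderm markers, at 1 for both with slide as a block. With no filter 1 fibroblast and 3 trophectoderm markers passed. The fibroblast count was also 1 without floxed array 2, null array 1 or null array 2, and the trophectoderm count 3 without floxed array 2 or null array 2. Markers of parietal and primitive endoderm fell in 2 of 6 tested (Col4a1 and Col4a2), with Gata6, Sox17, Sox7 and Foxa2 well above background on no array, and of neural crest in 1 of 6 (Ets1). Of primitive streak and mesoderm, endothelium and blood, 5, 3 and 5 markers were tested and 0 passed with all 9 arrays. Between null and floxed cells 0, 0 and 5 of them were at an unadjusted p under 0.05, as were 4540 of all 19909 genes. Of the 10 markers of embryonic stem cells 0 passed against floxed cells (2 at an unadjusted p under 0.05), and Utf1 rose against induced cells. Without floxed array 3 the counts between null and floxed cells were 1 higher and 3 lower for fibroblast, 1 and 7 for trophectoderm, 4 and 1 for blood, 1 and 6 for embryonic stem cell, 1 and 3 for endoderm, and 1 and 1 for neural crest markers. In that fit 24.9% of all genes passed. Eomes of the streak list was then higher and Pecam1 of the endothelial list lower, both named after their values were seen. The part of other cell types in the fall of Twist2, Zeb2 and the mesenchymal and epithelial genes was not tested, and in bulk RNA fewer cells of a type and less RNA per cell cannot be told apart.

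Genes with the pattern most like a member that passed were found by the root mean square difference of their centred values over the 9 arrays. For Twist2 they were Mal, a membrane protein of myelin and epithelia (0.232), and Col1a1 (0.236). For Zeb2 they were Rbmy, a gene family of the Y chromosome whose copies 1 probe may not tell apart (0.215), and Lhfp, a membrane protein (0.228). All 4 were lower in every null array than in any floxed or induced array, which the choice by pattern brings about, so it is no added support. The null readings of Twist2 and Zeb2 used in the match lay below background.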

How the data were processed

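RNA (50 ng per sample) was labelled with Cy3 and hybridised to 1 array per sample. The authors deposited 1 scanner file per array, whose linear spot intensity came, per the submitters' processing notes, from Agilent Feature Extraction 10.7.3.1. As the file headers give it, processed intensity had background removed and a spatial trend taken out within each array, low spots got a surrogate, and arrays were not scaled to each other. Flags for spot quality are other deposited columns. The series matrix holds the mean intensity, equal to the scanner files within 0.5% for 100% of values, and all of its columns were mapped (0 left over). No spot was saturated.

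Control and outlier spots were left out and a probe's spots averaged; a probe counted as well above background if most of its spots did. Each log2 processed signal was set against the log2 of its array's 75th percentile. Each gene was represented by its brightest probe, named through RefSeq where the accession was held (27235 probes) and by the file otherwise (28446). Positions given for probes come from the files (mm9), and the exons or UTRs there were not analysed here. 1 limma fit (R 4.3.3, limma 3.58.1) of 3 group means gave two-sided moderated tests, Benjamini-Hochberg adjusted over 19909 genes at 0.05. Intervals rest on 3 arrays a group, whose number limits precision.

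Data of 19909 genes were simulated, 200 of them changed in null arrays. Between null and floxed arrays 74% of changes of 1 and 95% of changes of 2 on the log2 scale were recovered, and 7.14% of calls were false. The simulated noise was independent, with 1 SD per gene. It held no slide effect and no array that stood apart, so these shares do not give the power in the real data. Alternatives were other scalings, backgrounds, filters and probe rules, slide and replicate blocks, 2-group fits and each array left out. A fit over all probes was chosen after seeing the data.

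The members, the 5 lists and the 9 marker lists were chosen with earlier results of these data known. 1 gene of the list of mesenchymal structure is not reported here and was left out of its counts after they were seen. The text names all members and Xpc, up to 3 passing genes of each list in each direction with the largest change, and the 2 genes closest in pattern to each passing member; other list genes were named after their values were seen. Predicted and clone names were not eligible as closest genes.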

Additional observations from a re-analysis of the deposited data

How the results depend on the processing

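With 3 arrays a group and 5 of 10 members near background, small changes of Twist1, Twist2, Snai2, Zeb2 and Prrx1 could not be resolved. Of 567 tests of a member or Xpc under an alternative, 504 kept their direction and side of the threshold, 17 lost a call, 20 gained one and 26 turned in sign. Results that passed in neither fit count as kept, so the tally says little about the calls. Twist2 was lower in null than in floxed cells in all 20 alternatives that tested it (limma adjusted p from 0.000202 to 0.0438). The size of that difference depended on the setting and ran from -2.66 to -0.63. Members passing between induced and floxed cells numbered 0 in every alternative. Between null and floxed cells the 1 became 2 with median centring (Zeb2 added) and 0 where a probe had to be above background on all arrays, which removes Twist2 from the test. Over the arrays left out it ran from 1 to 5.

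Between null and induced cells the 2 became 1 with quantile normalization, no filter or the fit over all probes, and 0 with normexp, series matrix values or the filter on all arrays. It became 4 with slide as a block and 5 in the 2-group fit (14% of all genes), and ran from 1 to 6 over the arrays left out. Twist2 was at -0.42 with normexp (adjusted p = 0.0714) and -0.49 with series matrix values (adjusted p = 0.0791). With slide as a block Xpc was at -1.53 between null and floxed cells and did not pass (limma adjusted p = 0.179). Without floxed array 3 it passed between induced and floxed cells (-1.51, adjusted p = 0.0313), and over all arrays left out its value there ran from -1.51 to -1.30.

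With the replicate number as a block 0, 1 and 2 members passed in the 3 comparisons, Snai2 (-0.93, adjusted p = 0.0429) in place of Zeb2 (-1.43, adjusted p = 0.0508) between null and induced cells. Same-numbered arrays did not deviate together (correlations from -0.106 to 0.0871), so the numbers were not taken as pairs.

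No member passed the test under a setting that turned its sign, and the cause was not tested. Between induced and floxed cells Thy1 was at -0.021 (normexp), -0.042 (series matrix values), -1.15 (slide block) and -0.39 (slide as a random block), and over the arrays left out ran from -0.30 to 0.58, below 0 without floxed array 1, floxed array 2 or induced array 1. Zeb2 was at -0.043 (normexp) and -0.011 (series matrix values), and ran from -0.027 to 0.19, and Snai2 was at -0.29 (slide block) and -0.016 (random block). Over the arrays left out Snai1 ran from -0.32 to 0.18, Vim from -0.11 to 0.054 and Fn1 from -0.17 to 0.29, each turned without floxed array 3. Between null and floxed cells Zeb1 was at 0.59 (slide block) and 0.18 (random block) and ran from -0.49 to 0.12, above 0 without floxed array 1 or 2. In the same comparison Vim was at -0.15 and -0.0043 and Fn1 at 0.32 and 0.019 (slide and random block), and Snai1 ran from -0.34 to 0.16, above 0 without floxed array 3. Between null and induced cells Snai1 ran from -0.14 to 0.087, above 0 without induced array 1 or null array 1.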
